A study of Homo sapiens with 6 samples.

Results

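Receptor tyrosine kinases were followed as a class in MDA-MB-231, a human cell line from a triple negative breast cancer, after treatment with the multi-kinase inhibitor EC-70124. The members were 56 genes listed by family and matched by symbol to the annotation of the arrays, and 52 of them had a probe set of their own, among 18417 genes tested. RET, ALK and ROS1 were covered only by probe sets annotated to several genes and EPHB2 was not matched, and these were not analysed here. The tested group held 3 independent samples exposed to 500 nM EC-70124 for 24 h, and it was set against 3 independent control samples of the same line, whose vehicle the labels do not state. Each sample was hybridized to 1 Affymetrix Human Gene ST array, and values are model-based expression indices (MBEI), that is, intensities on a linear scale, 1 per probe set and array. The measurement is of mRNA in a pool of cells of a single line grown in culture, so receptor protein and kinase activity were not measured.

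Receptor tyrosine kinases are membrane proteins that bind a growth factor or a ligand of a neighbouring cell outside the cell and phosphorylate tyrosines inside it. The phosphorylated tail recruits adaptors such as GRB2 and SHC, which pass the signal to RAS, PI3K and phospholipase C, while ubiquitin ligases, phosphatases and feedback proteins end it. In triple negative breast cancer, which lacks hormone receptors and ERBB2 amplification, EGFR, MET and AXL are among the receptors known for their high expression and for their part in growth and migration.

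Of the 52 measured receptor genes, 13 fell and 3 rose after EC-70124, and 36 did not pass the test (limma, Benjamini-Hochberg adjustment over all genes, adjusted p under 0.05). The insulin receptor family carried the largest falls, with INSR at 48.7% and IGF1R at 54.2% of the control level, followed by EPHB4 at 63.8% and PTK7 at 66.4%. EGFR, EPHA2, EPHA7, FGFR1, FGFR4, ERBB3, ERBB4, AXL and MET fell to between 75.8% and 86.5% of control, and the genes that rose were STYK1, DDR2 and LMTK2. Falls made up 25.0% of the receptor genes against 14.8% of all genes, and rises 5.77% against 19.7%. Calls in either direction made up 30.8% of the receptor genes, close to the 34.5% of all genes. The direction of calls over all genes depended on the scaling. Of the genes called, 57.2% were higher with the deposited values and 46.9% after quantile normalization, where 16.9% of all genes were called higher and 19.2% lower. After quantile normalization 17 receptor genes were called lower and 3 higher, and the 16 genes called with the deposited values kept their call and direction.

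The 3 EC-70124 arrays lay below all control arrays for 17 receptor genes, or 32.7%, against 22.0% of all genes, and above them for 5, or 9.62%, against 25.6%. The median log2 fold change of the receptor genes was -0.07, beside -0.0045 over all genes, with a negative value for 36 and a positive value for 16 of the 52. After quantile normalization these medians were -0.11 and -0.045, with 43 receptor genes negative and 9 positive. Changes were moderate in size. The log2 fold change reached 0.5 in either direction in 5 of the 16 genes that passed, and only that of INSR reached 1. The share of calls followed intensity. Among the 25 receptor genes at or above the median probe set 44.0% passed, beside 46.6% of all genes there, and among the 27 dimmer ones 18.5% passed, beside 14.5%.

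**Figure D1:**
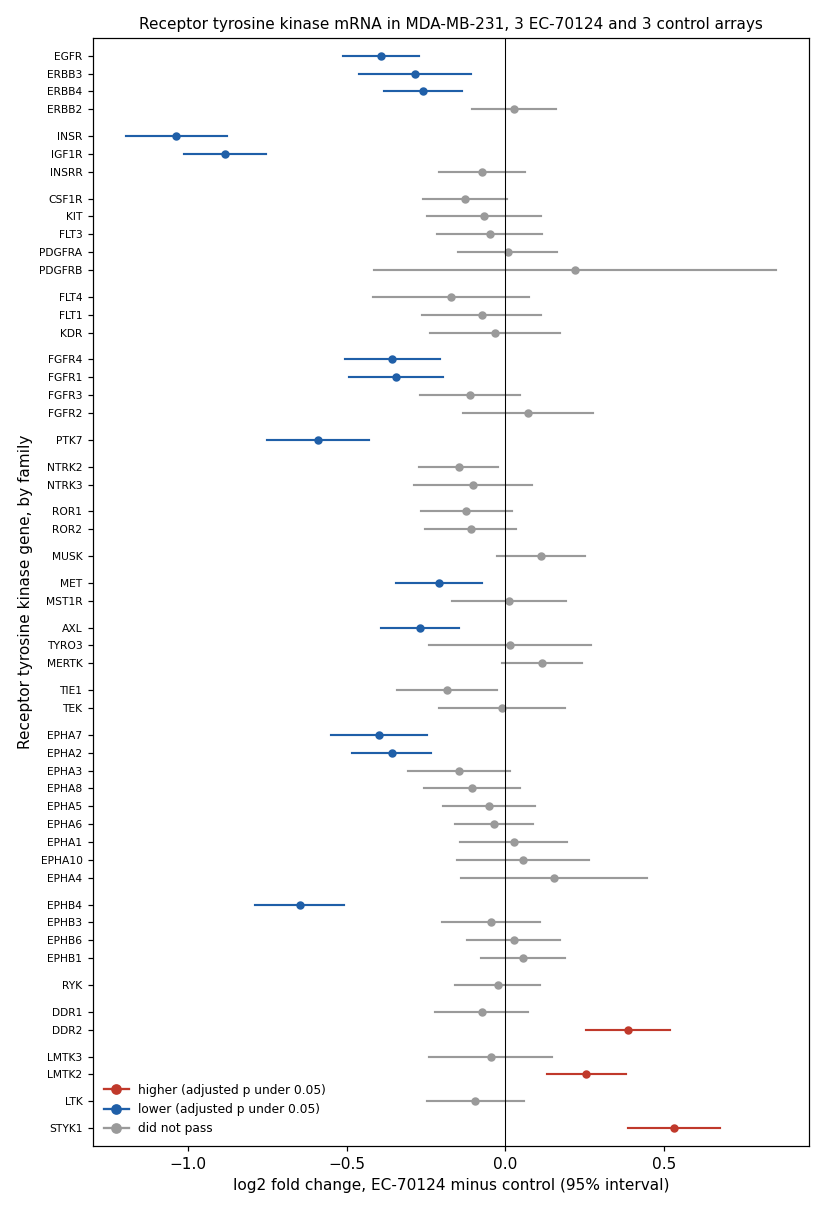
The log2 fold change of EC-70124 over control arrays (horizontal axis, point, with its 95% interval) is drawn for each of the 52 measured receptor tyrosine kinase genes, ordered by family, 3 arrays per group. Blue marks the 13 genes that fell, red the 3 that rose and grey the 36 that did not pass; INSR lies farthest to the left at -1.04 and PDGFRB has the widest interval.

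INSR encodes the insulin receptor and IGF1R the receptor for insulin-like growth factors, which signal through IRS proteins to PI3K and AKT. INSR had intensities of 472, 429 and 409 in the EC-70124 arrays, against 899, 928 and 861 in the control arrays, and IGF1R had 2179, 2271 and 2277 against 3990, 4312 and 4119. In both genes every EC-70124 array was far below the lowest control array, and the arrays of a group lay close together. INSR averaged 436.9 ± 32.2 in EC-70124 samples and 896 ± 33.8 in control samples (SD, n = 3 each), a log2 fold change of -1.04 ± 0.07 (SE) with a limma adjusted p of 2.24e-05. IGF1R averaged 2242 ± 55.3 in EC-70124 samples and 4140 ± 162 in control samples, a log2 fold change of -0.88 ± 0.06 with a limma adjusted p of 1.88e-05. A second probe set of IGF1R gave 923, 1029 and 943 in EC-70124 arrays, against 2232, 2101 and 2328 in control arrays, a log2 fold change of -1.20 ± 0.07. Both probe sets thus separated the groups. INSRR, the insulin receptor-related receptor, had a log2 fold change of -0.07, with a 95% interval of -0.21 to 0.06. The ligand gene IGF1 did not pass (log2 fold change -0.05, 95% interval -0.25 to 0.14), and neither did the substrate genes IRS1 at -0.12 (-0.31 to 0.07) and IRS2 at 0.11 (-0.02 to 0.25).

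The 250 bases before the RefSeq start (GRCh38.p14) of the 3 receptor genes with the largest falls are shown because GC box letters, the motif of the factor SP1, were frequent in the windows of the genes that fell. Each is printed on the gene's own strand, with GGGCGG or its reverse complement CCGCCC in capitals.
INSR, chr19:7294415-7294664 (minus strand): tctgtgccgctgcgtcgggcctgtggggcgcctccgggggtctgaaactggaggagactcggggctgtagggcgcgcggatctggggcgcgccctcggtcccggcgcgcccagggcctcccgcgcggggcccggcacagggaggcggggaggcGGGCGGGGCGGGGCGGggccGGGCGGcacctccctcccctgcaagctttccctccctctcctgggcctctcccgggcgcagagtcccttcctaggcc
IGF1R, chr15:98648289-98648538 (plus strand): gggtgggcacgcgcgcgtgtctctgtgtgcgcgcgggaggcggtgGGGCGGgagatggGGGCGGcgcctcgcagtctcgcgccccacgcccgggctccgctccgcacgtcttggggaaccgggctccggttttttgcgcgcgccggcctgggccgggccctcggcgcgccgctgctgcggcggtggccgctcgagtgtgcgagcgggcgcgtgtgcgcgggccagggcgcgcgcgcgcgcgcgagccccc
EPHB4, chr7:100827524-100827773 (minus strand): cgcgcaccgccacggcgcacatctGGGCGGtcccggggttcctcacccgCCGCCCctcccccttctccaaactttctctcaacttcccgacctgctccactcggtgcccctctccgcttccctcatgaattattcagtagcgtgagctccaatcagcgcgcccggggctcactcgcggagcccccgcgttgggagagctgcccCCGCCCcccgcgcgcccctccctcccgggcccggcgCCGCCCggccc
The windows of INSR and EPHB4 held 4 matches each, those of INSR lying next to one another with some overlap, and that of IGF1R held 2. RefSeq windows were matched for 46 of the 52 measured receptor genes, but not for ERBB3, INSRR, FLT4, FGFR1, EPHA10 and STYK1. GGGCGG was found on either strand in 14 of 17 windows of the 11 matched genes that fell (82.4%), in 32 of 54 windows of the 33 that did not pass (59.3%), in 1 of 4 windows of the 2 that rose (25.0%) and in 42.6% of all 35116 windows. These shares count windows, not genes, and shares by gene were not computed. Genes with several starts, such as DDR1 and FGFR2, added several windows, and windows of EPHA7 overlapped in part. The windows of genes that rose were those of DDR2 and 1 of LMTK2, so their share and base composition rest mostly on DDR2. Base composition ran the same way, with a median GC content of 68.4% in the windows of genes that fell, 64.8% for those that did not pass, 43.4% for those that rose and 58.0% over all windows. The AP-1 letters TGANTCA, searched on both strands, were found in 1 of the 17 windows of genes that fell, the downstream start of EGFR, which held 2 matches, and in 6.57% of all windows. The STAT letters TTCNNNGAA were found in 0 of these 17 windows and also in 6.57% of all windows. These are matches of letters, and binding was not measured.

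Among the EGF receptor family, 3 of 4 genes fell (75.0%, against 14.8% of all genes), a count too small to set the family apart. EGFR, the receptor for EGF and TGF-alpha, had intensities of 5285, 5282 and 5511 in EC-70124 arrays, against 6903, 7070 and 7128 in control arrays. The groups were well apart, with means of 5359 ± 131 in EC-70124 and 7034 ± 117 in control samples and a log2 fold change of -0.39 ± 0.05 (limma, adjusted p = 0.000632). ERBB4, a receptor for neuregulins, had 207, 210 and 218 in EC-70124 arrays, against 259, 255 and 248 in control arrays, a log2 fold change of -0.26 ± 0.05 (limma, adjusted p = 0.00575). It was among the 30% dimmest genes, and its signal could not be separated from background with these values. ERBB3, the partner of ERBB2 that has little kinase activity of its own, had 391, 420 and 350 in EC-70124 arrays, against 480, 484 and 449 in control arrays, a log2 fold change of -0.28 ± 0.08 (limma, adjusted p = 0.0211). For both neuregulin receptors all EC-70124 arrays were below all control arrays, but the gap was narrow for ERBB3. As an alternative, the methods' t-test was run for each gene with unequal variances and Benjamini-Hochberg adjustment, a use of it that differs from the study's, where it only scored genes for a gene-set analysis. The call of ERBB3 was lost by it (adjusted p = 0.139), without control replicate 1 (0.0752) and without control replicate 2 (0.0745). ERBB2, the member without a ligand and the target of trastuzumab, had 1566, 1494 and 1484 in EC-70124 arrays, against 1460, 1556 and 1442 in control arrays. Its groups overlapped, and the log2 fold change was 0.03 with a 95% interval of -0.10 to 0.16 (limma, adjusted p = 0.754); it was below 0 after quantile normalization (-0.05) and cyclic loess (-0.02).

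Of the 13 ephrin receptor genes measured, 3 fell and 0 rose. Calls thus made up 23.1%, against 34.5% of all genes, and falls also 23.1%, against 14.8%. Ephrin receptors bind ligands anchored on neighbouring cells and guide adhesion and cell sorting. EPHB4, the receptor for ephrin-B2, had 1371, 1522 and 1454 in EC-70124 arrays, against 2241, 2344 and 2228 in control arrays. It averaged 1449 ± 75.5 in EC-70124 and 2271 ± 63.8 in control samples, with no overlap, and its log2 fold change was -0.65 ± 0.06 (limma, adjusted p = 0.000104). EPHA2, the main ephrin-A receptor of epithelial cancers, had 4274, 4218 and 4396 in EC-70124 arrays, against 5310, 5540 and 5681 in control arrays, a log2 fold change of -0.36 ± 0.05 (limma, adjusted p = 0.00128). EPHA7, better known from the nervous system, had 231, 226 and 208 in EC-70124 arrays, against 304, 276 and 296 in control arrays, a log2 fold change of -0.40 ± 0.07 (limma, adjusted p = 0.00194). All EC-70124 arrays of these genes were below the lowest control array. EPHA7 was among the 30% dimmest genes, and its signal could not be separated from background with these values. The 10 other ephrin receptor genes had log2 fold changes from -0.15 for EPHA3 to 0.15 for EPHA4, all with overlapping groups. EPHA3 was called lower after quantile normalization (-0.22, adjusted p = 0.0257). Their ligands were uneven. EFNA3, EFNA4 and EFNA5 fell (log2 fold changes of -0.34, -0.38 and -0.58), while EFNB2, the ligand of EPHB4, rose by 0.23 (limma, adjusted p = 0.0204); the 3 ephrin-A genes were chosen for mention after their values were seen. The other 4 ephrin genes measured did not pass, with log2 fold changes of 0.16 for EFNA1, 0.12 for EFNA2, 0.04 for EFNB1 and -0.13 for EFNB3.

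PTK7, a pseudokinase that acts as a co-receptor in planar cell polarity and WNT signalling, had 1139, 1203 and 1033 in EC-70124 arrays, against 1631, 1695 and 1746 in control arrays. It averaged 1125 ± 85.9 in EC-70124 and 1691 ± 57.4 in control samples, and all EC-70124 arrays were well below the control arrays (log2 fold change -0.59 ± 0.07, limma adjusted p = 0.000356). Of the other members linked to WNT ligands, ROR1, ROR2 and RYK did not pass, and WNT receptors outside the receptor tyrosine kinases were not looked at. ROR1 and ROR2 had log2 fold changes of -0.12 (95% interval -0.27 to 0.02) and -0.11 (-0.25 to 0.03), and RYK, also a pseudokinase, had -0.02 (-0.16 to 0.11). ROR1 was called lower after quantile normalization (log2 fold change -0.21, adjusted p = 0.0256).

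Of the FGF receptors, FGFR1 and FGFR4 fell, and FGFR2 and FGFR3 did not pass. FGFR1 had 1114, 1080 and 1025 in EC-70124 arrays, against 1282, 1432 and 1378 in control arrays, a log2 fold change of -0.35 ± 0.06 (limma, adjusted p = 0.00363). FGFR4, the receptor for the bile acid hormone FGF19, had 640, 676 and 680 in EC-70124 arrays, against 806, 840 and 914 in control arrays, a log2 fold change of -0.36 ± 0.06 (limma, adjusted p = 0.00328). Both genes had all EC-70124 arrays below all control arrays, and FGFR4 missed the threshold by the methods' t-test (adjusted p = 0.0523). The log2 fold changes of FGFR2 and FGFR3 were 0.07 (95% interval -0.13 to 0.28) and -0.11 (-0.27 to 0.05).

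MET, the receptor for hepatocyte growth factor, and AXL, a receptor for GAS6 linked to migration and drug resistance, fell by amounts similar to those of ERBB3 and ERBB4. AXL had 8134, 8023 and 8330 in EC-70124 arrays, against 9599, 10157 and 9733 in control arrays, a log2 fold change of -0.27 ± 0.05 (limma, adjusted p = 0.00508). MET had 3425, 3625 and 3304 in EC-70124 arrays, against 3981, 3869 and 4112 in control arrays, a log2 fold change of -0.21 ± 0.06 (limma, adjusted p = 0.0259). The groups did not overlap in either gene, and MET had the narrower gap. Its call was lost by the methods' t-test (0.0685), with the replicate number as a block (0.0562), and without EC-70124 replicate 1 (0.0705), control replicate 1 (0.0783) or control replicate 3 (0.0838). The other members of both families did not pass. MST1R, the receptor for macrophage-stimulating protein, had 1073, 968 and 915 in EC-70124 arrays, against 1014, 1009 and 906 in control arrays, a log2 fold change of 0.01 (95% interval -0.17 to 0.19). TYRO3 had 2315, 2048 and 1766 in EC-70124 arrays, against 2161, 2098 and 1794 in control arrays, a log2 fold change of 0.01 (-0.24 to 0.27). Groups overlapped in both, and both values were below 0 after quantile normalization (-0.07 and -0.06) and after cyclic loess (-0.03 each). MERTK, with TYRO3 and AXL the third receptor of the TAM family, had all EC-70124 arrays above the control arrays but did not pass (log2 fold change 0.12, 95% interval -0.01 to 0.24, limma adjusted p = 0.149).

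**Figure D2:**
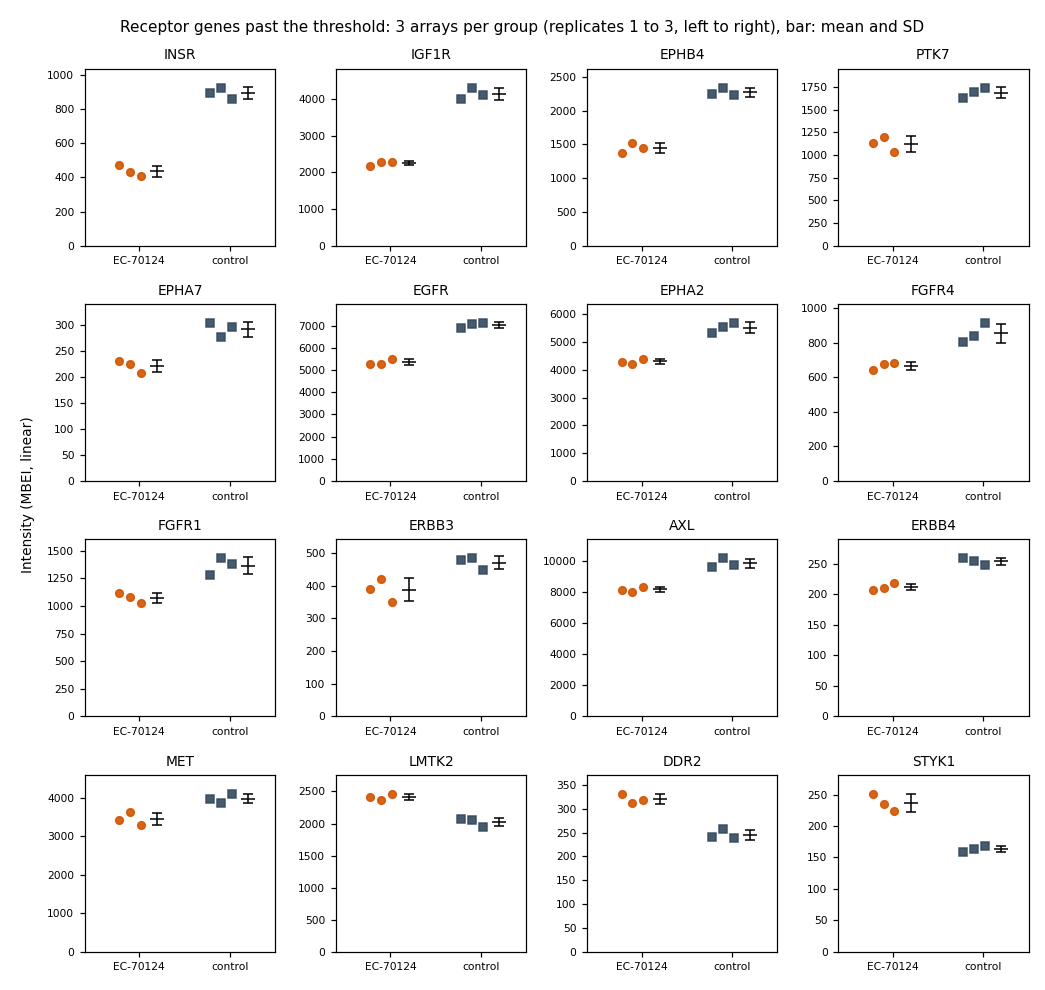
Intensity (MBEI, linear, from 0) on each of the 6 arrays for the 16 receptor genes that passed the test, with EC-70124 arrays as orange circles left of control arrays as dark squares, and the mean with its SD beside each group. In all 16 panels the groups do not overlap; the gap is widest relative to the level for INSR and narrow for ERBB3 and MET.

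The genes that rose were STYK1, DDR2 and LMTK2. STYK1 encodes a membrane kinase without a known ligand, and it had 251, 235 and 224 in EC-70124 arrays, against 158, 164 and 168 in control arrays. It averaged 237 ± 13.8 in EC-70124 and 163 ± 5.03 in control samples, a log2 fold change of 0.53 ± 0.06 (limma, adjusted p = 0.000341). DDR2, a receptor for fibrillar collagen, had 331, 312 and 318 in EC-70124 arrays, against 240, 257 and 239 in control arrays, a log2 fold change of 0.39 ± 0.06 (limma, adjusted p = 0.00114). LMTK2, a membrane kinase of endosomal traffic, had 2412, 2374 and 2465 in EC-70124 arrays, against 2077, 2048 and 1952 in control arrays, a log2 fold change of 0.26 ± 0.05 (limma, adjusted p = 0.00679). All EC-70124 arrays of these genes were above all control arrays. The control values of STYK1 lie among the dim probe sets of the arrays, which could not be separated from background with these values. A second, dimmer probe set of DDR2 had overlapping groups and a log2 fold change of 0.22 ± 0.20. STYK1 and DDR2 were among the 30% dimmest genes and were not tested where these were left out. Their relatives did not pass. DDR1, the other collagen receptor, had 2414, 2318 and 2155 in EC-70124 arrays, against 2475, 2312 and 2461 in control arrays, a log2 fold change of -0.07 (95% interval -0.22 to 0.07, limma adjusted p = 0.425), and its other probe sets also gave -0.07. LMTK3 had a log2 fold change of -0.05 (-0.24 to 0.15).

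The PDGF, VEGF and TIE receptor families, which serve mesenchymal, blood and endothelial cells, held 10 measured genes, and 0 of them passed in either direction, against 34.5% of all genes. All but PDGFRB, KDR and FLT4 lay below the median probe set, where 14.5% of all genes passed. KIT, the receptor for stem cell factor, had 139, 147 and 160 in EC-70124 arrays, against 154, 146 and 168 in control arrays, a log2 fold change of -0.07 (95% interval -0.25 to 0.11). FLT3, a cytokine receptor of blood progenitors, had 126, 114 and 126 in EC-70124 arrays, against 137, 121 and 122 in control arrays, a log2 fold change of -0.05 (-0.22 to 0.12). The groups of both overlapped, and both probe sets were dim, so that their signal could not be separated from background with these values. KDR, the main receptor for VEGF-A, had 556, 445 and 491 in EC-70124 arrays, against 536, 509 and 476 in control arrays, a log2 fold change of -0.03 (-0.24 to 0.17). TIE1, an endothelial receptor, had all EC-70124 arrays below the control arrays and a log2 fold change of -0.18 (-0.34 to -0.03) with a limma adjusted p of 0.0718, and it was called lower after quantile normalization (-0.21, 0.0400). Defining markers of other cell types bear on these genes. Of 8 endothelial markers 1 rose (ESAM, log2 fold change 0.28), and their summed intensity was 5585 to 5875 in EC-70124 arrays and 4930 to 5212 in control arrays. Of 6 leukocyte markers 1 fell (CD68, -0.33), with a sum of 7915 to 9406 in EC-70124 arrays and 10366 to 10904 in control arrays, and of 6 fibroblast markers 1 rose (POSTN, 0.55), with a sum of 1758 to 1947 in EC-70124 arrays and 1668 to 1737 in control arrays. The shifts of the endothelial and leukocyte sums lay mostly in ESAM and CD68. Without ESAM the endothelial sum was 2537 to 2775 in EC-70124 arrays and 2509 to 2541 in control arrays, and without CD68 the leukocyte sum was 1582 to 1660.4 in EC-70124 arrays and 1480 to 1602 in control arrays. The defining markers PECAM1 (193 to 220 in EC-70124 and 185 to 232 in control arrays) and PTPRC (88.7 to 104 in EC-70124 and 78.6 to 105 in control arrays) had overlapping groups. A second, dimmer probe set of PECAM1 had groups that did not overlap. It gave 38.0, 40.9 and 29.2 in EC-70124 arrays, against 59.9, 57.9 and 52.6 in control arrays (log2 fold change -0.67 ± 0.13). The part of these markers in the receptor values was not tested. In bulk samples of this kind, fewer cells with an mRNA and less of that mRNA per cell cannot be told apart.

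PDGFRB, the receptor for PDGF-B, had the widest spread of the 52 genes, with 593, 589 and 1299 in EC-70124 arrays, against 672, 684 and 624 in control arrays. A single array, EC-70124 replicate 3, was above all others, and the other EC-70124 arrays were below all control arrays. The log2 fold change was 0.22 ± 0.27, with a 95% interval of -0.41 to 0.85 (limma, adjusted p = 0.596), and without EC-70124 replicate 3 it was -0.16 (adjusted p = 0.0793). Its 95% interval was the only one among the 36 uncalled receptor genes that reached beyond 0.5 in either direction. EPHA4 was next, with 425, 410 and 581 in EC-70124 arrays, against 429, 435 and 394 in control arrays (log2 fold change 0.15 ± 0.13), and the same array was the high one. TYRO3, given above, and FLT4, the receptor for VEGF-C, followed. FLT4 had 581.5, 462 and 456 in EC-70124 arrays, against 582, 592 and 508 in control arrays, with a log2 fold change of -0.17, and was called only without EC-70124 replicate 1 (adjusted p = 0.0384). Over the receptor genes, EC-70124 replicate 3 was the highest of the 6 arrays for 6 genes and the lowest for 20. The matching counts over all genes were not computed. For the 17 receptor genes with all EC-70124 arrays below the control arrays, the lowest array had to be an EC-70124 array. The SD of its deviations from the group mean on the log2 scale was 0.142, against 0.0841 to 0.0973 in the other EC-70124 arrays and 0.0516 to 0.0643 in the control arrays. Over all genes it was 0.128, against 0.0755 to 0.0994 in the other 5 arrays. The 16 receptor genes called with all arrays kept their call without it.

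**Figure D3:**
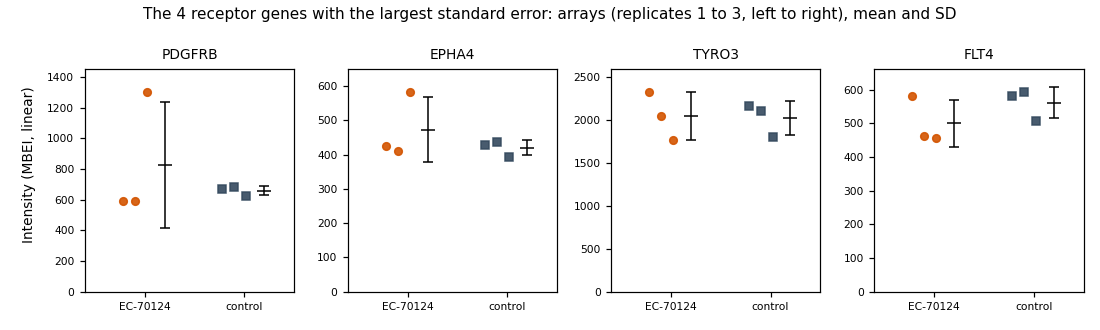
Intensity (MBEI, linear, from 0) on each of the 6 arrays for the 4 receptor genes with the largest standard error of the log2 fold change, EC-70124 arrays as orange circles left of control arrays as dark squares, with mean and SD. In PDGFRB and EPHA4 the high point is EC-70124 replicate 3, at 1299 and 581.

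The remaining receptors also did not pass. NTRK2, the receptor for BDNF, had the lowest adjusted p of the 36 uncalled genes (0.0684, limma) with a log2 fold change of -0.15 (95% interval -0.27 to -0.02), and was called lower after quantile normalization and without the 30% dimmest genes (adjusted p of 0.0281 and 0.0409). NTRK3, the receptor for neurotrophin-3, had -0.10 (-0.29 to 0.08), and LTK, related to ALK, had -0.09 (-0.25 to 0.06). MUSK, the agrin-responsive receptor of the neuromuscular junction, had 0.11 (-0.03 to 0.25). Groups did not overlap in 6 of the 36 genes, namely CSF1R, NTRK2, ROR1 and TIE1 (EC-70124 arrays lower) and MUSK and MERTK (EC-70124 arrays higher). Over all genes, called or not, the EC-70124 arrays lay below in 22.0% and above in 25.6%. The share among uncalled genes alone was not computed, so this count is no trait of the receptors. With 3 arrays per group, an exact permutation test of a single gene cannot give a 2-sided p below 0.1, and none was run.

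The genes that act with the receptors were counted by role, in lists of ligands, co-receptors, adaptors with proximal effectors, and restraints on signalling. The lists were chosen with earlier results of these data known, so their shares describe the listed genes only. Of 152 listed genes 135 were measured, and 37 of these fell (27.4%) and 12 rose (8.89%), against 14.8% and 19.7% of all genes. After quantile normalization 46 of the 135 were called lower and 7 higher, where 19.2% of all genes were called lower and 16.9% higher.

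Of the 65 ligand genes measured 13 fell and 5 rose (27.7% called, against 34.5% of all genes), with a median log2 fold change of -0.04. GAS6, the ligand of AXL, had 537, 506 and 585 in EC-70124 arrays, against 1038, 1077 and 1002 in control arrays, a log2 fold change of -0.94 ± 0.07 (limma, adjusted p = 3.54e-05). PDGFA, a ligand of PDGFRA, had 1183, 1234 and 1248 in EC-70124 arrays, against 2134, 2235 and 2198 in control arrays, a log2 fold change of -0.84 ± 0.05 (limma, adjusted p = 1.90e-05). Both ligand genes had tight groups that were far apart. FGF1, a ligand of all FGF receptors, had 692, 709 and 1449 in EC-70124 arrays, against 382, 473 and 357 in control arrays, a log2 fold change of 1.15 ± 0.27 (limma, adjusted p = 0.0104). KITLG, the ligand of KIT, had 305, 319 and 406 in EC-70124 arrays, against 211, 202 and 237 in control arrays, a log2 fold change of 0.66 ± 0.11 (limma, adjusted p = 0.00264). All EC-70124 arrays were above the control arrays in both, and EC-70124 replicate 3 was the highest. By the methods' t-test neither passed (adjusted p of 0.175 and 0.0779). FGF2, BDNF and EFNB2 were the other ligand genes that rose, each by 0.23 to 0.24 on the log2 scale. Leaving out EC-70124 replicate 2 or any control replicate left 3 ligand genes called higher, and quantile normalization left 2. By the methods' t-test 1 ligand gene was called higher and 6 lower.

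All 9 co-receptor genes were measured, and 3 fell and 0 rose (33.3% called, close to the 34.5% of all genes). NRP2 and NRP1, the neuropilins that present VEGF and semaphorins to their receptors, had the largest falls. NRP2 had 261, 319 and 308 in EC-70124 arrays, against 720, 798 and 710 in control arrays, a log2 fold change of -1.33 ± 0.09 (limma, adjusted p = 2.27e-05), and -0.56 ± 0.08 on a second probe set. NRP1 had 1780, 1764 and 1979 in EC-70124 arrays, against 3818, 3749 and 3877 in control arrays, a log2 fold change of -1.05 ± 0.06 (limma, adjusted p = 1.46e-05). Neither gene's groups came near each other. LRP4, the agrin receptor that works with MUSK, had a log2 fold change of -0.25 (limma, adjusted p = 0.0348), and this call was lost by the methods' t-test (0.207) and without any 1 of the EC-70124 replicates or of control replicates 1 and 2 (0.0662 to 0.0902).

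Among 33 adaptors and proximal effectors 8 fell and 2 rose (30.3% called, close to the 34.5% of all genes), with a median log2 fold change of -0.10. SHC3, an SHC adaptor best known in neurons, had 1049, 1139 and 1061 in EC-70124 arrays, against 2475, 2652 and 2383 in control arrays, a log2 fold change of -1.21 ± 0.06 (limma, adjusted p = 9.30e-06). GRB7, an adaptor of ERBB2, fell by 0.93 and GAB2, a docking protein for PI3K and SHP2, by 0.63 on the log2 scale, and neither passed by the methods' t-test (adjusted p of 0.108 and 0.174). VAV1, a signalling protein mostly of blood cells, had 679, 643 and 649 in EC-70124 arrays, against 398, 416 and 373 in control arrays, a log2 fold change of 0.73 ± 0.06 (limma, adjusted p = 6.34e-05). PIK3R1, the regulatory subunit of PI3K, rose by 0.25 (limma, adjusted p = 0.0355). Only 1 adaptor was called higher after quantile normalization or cyclic loess, by the methods' t-test, and without EC-70124 replicates 2 or 3 or control replicates 1 or 3.

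Restraints on receptor signalling had the largest share of calls of the 4 lists, with 13 of 28 lower and 5 higher (64.3% called, against 34.5% of all genes and 46.6% of those at or above the median probe set) and a median log2 fold change of -0.23. As this list was also chosen with earlier results known, its share is no test of restraints as a class. DUSP4, a nuclear phosphatase of MAP kinases, had 1364, 1546 and 1455 in EC-70124 arrays, against 3442, 3398 and 3407 in control arrays, a log2 fold change of -1.23 ± 0.06 (limma, adjusted p = 7.51e-06). DUSP5, a phosphatase of ERK, had 2973, 3200 and 2241 in EC-70124 arrays, against 5759, 5682 and 5811 in control arrays, a log2 fold change of -1.05 ± 0.12 (limma, adjusted p = 0.000311), and missed the threshold by the methods' t-test (0.0826). All EC-70124 arrays of both were below all control arrays. PTPRK, a receptor-type phosphatase, had 1168, 1205 and 1180 in EC-70124 arrays, against 2366, 2454 and 2386 in control arrays, a log2 fold change of -1.02 ± 0.05 (limma, adjusted p = 7.75e-06). Of the 4 Sprouty genes, feedback inhibitors chosen for mention after their values were seen, SPRY4, SPRY1 and SPRY2 fell to 49.9%, 70.4% and 77.9% of control, and SPRY3 had a log2 fold change of 0.18 (95% interval -0.11 to 0.46). Related inhibitors on the list did not pass, with log2 fold changes of -0.23 for DUSP6 (limma, adjusted p = 0.0523), -0.23 for SPRED2 (0.0686), -0.10 for SPRED3 (0.452) and 0.09 for SPRED1 (0.241). The genes that rose were NF1, PTPN2, RNF41, NEDD4 and LRIG2. NF1, the RAS GTPase activator neurofibromin, had 2581, 2576 and 2763 in EC-70124 arrays, against 1322, 1372 and 1217 in control arrays, a log2 fold change of 1.02 ± 0.07 (limma, adjusted p = 1.93e-05). Its other probe sets, which share identical values, gave 1.23 ± 0.08, and since NF1 has near-identical pseudogenes its level is uncertain. PTPN2, a tyrosine phosphatase of EGFR and INSR, rose by 0.65 (limma, adjusted p = 0.000206), RNF41, a ubiquitin ligase for ERBB3, by 0.57 (0.000156), NEDD4, also a ubiquitin ligase, by 0.50 (0.000172) and LRIG2 by 0.25 (0.0113). Close relatives of NEDD4 and LRIG2 went the other way, with log2 fold changes of -0.59 for NEDD4L, -0.60 for LRIG1 and -0.59 for LRIG3. The rest of the 13 genes that fell were UBASH3B (-0.98), PTPRF (-0.75), CBLB (-0.46) and ERRFI1 (-0.24), named to complete the count.

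**Figure D4:**
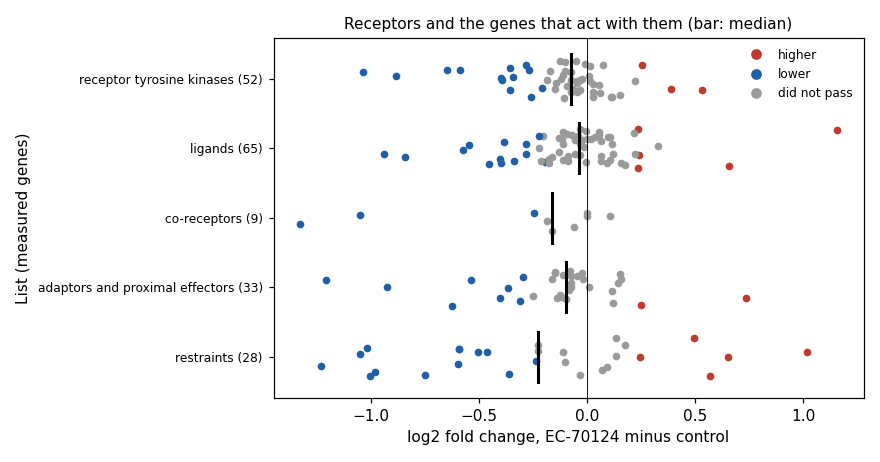
Each point is the log2 fold change of EC-70124 over control (horizontal axis) of a measured gene, 3 arrays per group, with the 52 receptor tyrosine kinases in the top row and ligands (65), co-receptors (9), adaptors and proximal effectors (33) and restraints (28) under it; red marks genes called higher, blue lower, grey neither, and the black bar is the median. The median is -0.07 for the receptors and lowest for the restraints, at -0.23.

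The arrays were close in scale, but the median of every EC-70124 array was above that of every control array. The median intensity over 33252 probe sets was 451 to 460.1 in EC-70124 arrays and 437 to 444 in control arrays, and Pearson's r of log2 values across probe sets was 0.990 to 0.993 within groups and 0.979 to 0.984 between them. Marker genes were also looked at, although they cannot establish the identity of the line. VIM, a mesenchymal filament, was at 12837 to 13305 in EC-70124 arrays and 13703 to 13991 in control arrays, and of the 5 markers of MDA-MB-231-like cells 2 rose (KRT18 and KRT8) and 2 fell (MSN and CD44). The hormone receptor genes were dim, with ESR1 at 183 to 233 in EC-70124 arrays and 217 to 230 in control arrays and PGR at 149 to 163 in EC-70124 arrays and 151 to 176 in control arrays. Of 6 luminal breast markers, GATA3 and CDH1 rose by 0.46 and 0.19 on the log2 scale, and the other 4 did not pass. A second, dimmer probe set of EPCAM, 1 of these 4, had groups that did not overlap. It gave 209, 178 and 280 in EC-70124 arrays, against 105, 155 and 144 in control arrays (log2 fold change 0.72 ± 0.21). FOXA1, the brightest of the 6, was at 816 to 879 in EC-70124 arrays and 853 to 942 in control arrays.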

How the data were processed

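MDA-MB-231 cells were profiled in 3 EC-70124 samples (500 nM, 24 h) and 3 control samples, each on its own Affymetrix Human Gene ST array. The authors used dChip with rank invariant normalization and deposited an intensity on a linear scale, the MBEI, for each of 33252 probe sets. For the version of dChip, its background correction, scan dates and batches, nothing is given in the sources used here. Between 69 and 98 values per array were at or below 1.

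Values below 1 were raised to 1 before log2, and the authors' normalization was kept. The platform annotation gives 1 symbol to 19460 probe sets, several to 1754 and none to 12038. Each of 18417 genes was represented by its probe set with the highest mean over the 6 arrays, which for 769 genes was a choice among several. Of the receptor genes, 4 had more than 1 probe set. The comparison was fitted in limma 3.58.1 (lmFit, eBayes; R 4.3.3; Benjamini-Hochberg, threshold 0.05, 2-sided), and intervals are at 95%. The median SE over genes was 0.07 on the log2 scale, and the number of arrays limits the precision. The script was tested on simulated data. Figures were drawn with matplotlib 3.10.9 in Python 3.11.15.

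Members and lists were chosen with earlier results of these data known. Named genes are all members past the threshold, a fixed list of well-known receptors, other members with their values, and up to 4 genes past the threshold from each partner list with the largest change. Further genes were named where a count was 5 or fewer, where they are ligands or substrates of a named receptor, or where the text says so. Promoter windows are the 250 bases before RefSeq starts (GRCh38.p14). A planned look at protein sequences was not run. Alternatives covered scaling, filters, offset, probe set choice, test, replicate block and left-out arrays.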

Additional observations from a re-analysis of the deposited data

How the results depend on the processing

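Over the alternatives other than the fold threshold, the named receptor genes that passed kept their direction in all 220 refits, with 211 on the same side of the threshold and 9 past it no longer. These 9 were all of ERBB3, MET or FGFR4. Of 110 refits of 8 receptor genes that had not passed (ERBB2, PDGFRB, KIT, FLT3, KDR, MST1R, TYRO3 and DDR1), 14 changed sign. Other uncalled receptor genes were followed only for whether they became called. ERBB2, MST1R and TYRO3 were at -0.0482, -0.0724 and -0.0649 after quantile normalization and at -0.0234, -0.0344 and -0.0343 after cyclic loess. With 1 array left out at a time, PDGFRB ranged over -0.159 to 0.412, FLT3 over -0.0819 to 0.00734, KDR over -0.116 to 0.0451, MST1R over -0.0511 to 0.0640 and TYRO3 over -0.0808 to 0.115, and 14 to 16 receptor genes passed.

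Counts moved with the threshold and the test. At a fold of at least 1.5, 4 receptor genes were called lower (INSR, IGF1R, PTK7 and EPHB4) and 0 higher, against 596 and 1184 of all genes and 16 and 5 of the partner genes. The methods' t-test called 1280 of all genes lower and 1962 higher, and 22 partner genes lower and 6 higher. Quantile normalization called 7 partner genes higher. Without the 30% dimmest genes 1 receptor gene was called higher, since STYK1 and DDR2 were not tested, and ERBB4 and EPHA7 were not tested either. The replicate number as a block left 15 receptor genes called (12 lower, 3 higher), MET being lost at an adjusted p of 0.0562. The correlations of same-numbered deviations were 0.127, -0.0225 and 0.136. Only for EC-70124 replicate 3 was the control array of the same number the best match. These values cannot show whether the numbers pair the samples. No measure of background was part of the values, so dim receptors such as KIT and FLT3 set the limit of what these arrays can show.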
